A study of Mus musculus with 15 samples.

Results

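The genes described here carry fatty acids and lipoprotein lipids across the wall of blood vessels: Fabp4, Fabp5, Cd36, Scarb1, Lpl, Gpihbp1, Lipg, Pparg and Apoe. These 9 genes of the 53465 in the table of normalized counts were chosen by name for their roles, and each was found once in the table. They were followed in 3 populations of cells taken by flow sorting on day 15 from tumors of the mouse melanoma line B16-F0. Endovascular progenitors (EVP, CD31lo VEGFR2lo), transit amplifying cells (TA, CD31int VEGFR2lo) and definitive differentiated cells (D, CD31hi VEGFR2hi) gave 5 libraries each, 15 in all. All 3 populations were Lin-, CD34+ and GFP+ cells from tumors grown in CAG-GFP transgenic mice of both sexes aged 8 to 14 weeks. In these hosts a ubiquitous promoter drives GFP, so the GFP gate was for host cells and does not mark endothelial cells among them. In other mice, whose endothelial cells were labeled with YFP through Cdh5-Cre, the study reports that most Lin- CD34+ tumor cells carried the label. The labels give neither the number of animals behind a library nor whether libraries of the same number share animals, so p-values measure the spread between libraries, which may be technical.

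Endothelial cells of fat, heart and muscle pass fatty acids from the blood to the tissue. Lipoprotein lipase (Lpl) splits the triglycerides of circulating lipoproteins, and it is made mostly by the cells around the vessel. The endothelial protein Gpihbp1 carries the enzyme to the luminal surface and holds it there. Cd36 takes up the fatty acids at the membrane, and the carriers Fabp4 and Fabp5 bind them inside the cell. The nuclear receptor Pparg switches on many of these genes, while Scarb1 and Apoe handle cholesterol-rich lipoproteins and Lipg, endothelial lipase, splits phospholipids of high density lipoprotein.

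Fabp4 and Fabp5 lie close together on mouse chromosome 3 and belong to the same family of small carriers. To show how far their transcripts differ, 120 aligned coding bases of each are printed from GRCm38, with the 75 identical bases in capitals. The Fabp4 stretch covers coding bases 163 to 282 in 2 exons between chr3:10205307-10206033 on the minus strand, and the Fabp5 stretch covers coding bases 169 to 288 in 2 exons between chr3:10015060-10015507 on the plus strand.
Fabp4: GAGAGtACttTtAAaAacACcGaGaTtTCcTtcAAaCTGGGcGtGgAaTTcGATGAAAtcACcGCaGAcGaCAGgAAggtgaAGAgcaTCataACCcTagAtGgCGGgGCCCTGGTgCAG
Fabp5: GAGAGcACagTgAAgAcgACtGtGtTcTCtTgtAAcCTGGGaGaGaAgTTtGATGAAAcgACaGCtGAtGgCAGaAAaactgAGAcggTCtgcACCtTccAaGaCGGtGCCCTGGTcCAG
Over the whole coding sequences of 396 and 405 bases, 66.1% of the aligned bases were identical, and the longest identical run was 12 bases. No run of 50 bases in the longest coding transcript of Fabp4 occurred in the transcript of another gene. For Fabp5, 21.1% of such runs occurred in copies of the gene, namely Fabp5l2, Gm13998, Gm14328, Gm6100 and Gm6166, so reads could be split between them and the Fabp5 counts are uncertain. Among the copies Gm6166 had the highest counts, between 59.69 and 360.4 normalized counts per library. For Lpl, 1.65% of the runs occurred in other genes, and the other members had no such run.

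Promoters are shown for Cd36 and Pparg, which were both higher in D than in EVP, because the receptor made from Pparg belongs to a family that binds the letters AGGTCA as part of longer sites. RefSeq promoters (GRCm38.p6, from 250 bases before to 50 after the start) were given for 3 of the 9 genes, 1 for Cd36, 3 for Pparg and 3 for Apoe. AGGTCA, or TGACCT on the other strand, is in capitals.
Cd36, chr5:17835847-17836146, minus strand: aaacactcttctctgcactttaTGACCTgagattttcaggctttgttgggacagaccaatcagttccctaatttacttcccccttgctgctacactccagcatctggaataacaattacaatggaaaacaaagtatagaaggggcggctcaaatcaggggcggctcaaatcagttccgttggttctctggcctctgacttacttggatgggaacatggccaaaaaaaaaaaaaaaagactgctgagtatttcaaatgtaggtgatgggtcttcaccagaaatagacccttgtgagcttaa
Pparg promoter 1, chr6:115360894-115361193, plus strand: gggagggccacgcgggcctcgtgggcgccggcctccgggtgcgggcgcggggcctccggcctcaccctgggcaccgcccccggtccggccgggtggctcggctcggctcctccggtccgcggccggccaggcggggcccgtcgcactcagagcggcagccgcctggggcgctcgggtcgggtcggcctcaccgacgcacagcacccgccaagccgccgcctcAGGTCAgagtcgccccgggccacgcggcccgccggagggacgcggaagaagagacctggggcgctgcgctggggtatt
Pparg promoter 2, chr6:115362099-115362398, plus strand: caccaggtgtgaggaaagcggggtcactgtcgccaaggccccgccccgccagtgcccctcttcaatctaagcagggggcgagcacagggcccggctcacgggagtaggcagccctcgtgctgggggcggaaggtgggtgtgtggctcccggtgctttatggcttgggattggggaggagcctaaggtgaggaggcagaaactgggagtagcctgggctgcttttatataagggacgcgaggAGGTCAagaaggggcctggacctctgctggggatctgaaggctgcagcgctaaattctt
The match starts 228 bases before the RefSeq start used for Cd36, and 28 and 9 bases before the starts of Pparg promoters 1 and 2. The Cd36 window lies inside the annotated gene (chr5:17781690-17888801) and not at its upstream end on the minus strand. The third Pparg promoter and the 3 Apoe promoters hold no match, and 16.2% of all 32544 promoters of this length hold at least 1. A match describes these letters and is not evidence of a binding site.

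Libraries held 5394356 to 26513073 reads on genes (median 19049194). The summed normalized counts of 10 endothelial marker genes (Pecam1, Cdh5, Tie1 and others) lay between 1914 and 3963 in EVP, between 5705 and 69312 in TA and between 95280 and 148576 in D. Those of 10 fibroblast markers (Pdgfra, Col1a1, Dcn and others) lay between 874478 and 1578305 in EVP, between 198158 and 626174 in TA and between 1004 and 4295 in D. All 10 fibroblast markers were higher in EVP than in D, and 9 of the 10 endothelial markers were higher in D (limma). The EVP libraries thus held low counts of the markers that define endothelium, with 119.4 to 613.3 normalized counts of Pecam1, which encodes the CD31 used in the sort. They held 4368 to 10872 of the fibroblast marker Pdgfra, against at most 59.59 in D. TA replicate 5 stood apart from the other TA libraries, with 372.4 normalized counts of Pecam1 and 85852 of Rgs5, a gene of mural cells. EVP replicate 1, TA replicates 1 and 3 and D replicate 1 held reads on 30728 to 39556 genes, against 21417 to 28914 in the others, and results were repeated without these 4 together. Transcripts of melanoma marker genes were present in every library, with 5023 to 49277 normalized counts of Pmel, a melanosome protein. The GFP gate was for host cells, and whether these transcripts came from tumor or host cells was not tested. The summed counts of 6 melanoma markers were 29702 to 67272 in EVP, 69248 to 175671 in TA and 18157 to 47767 in D. Those of 10 genes known to respond to tissue dissociation were 67028 to 216170 in EVP, 44835 to 106410 in TA and 38612 to 43619 in D, and 5 of the 10 (Fos, Fosb, Jun, Junb and Egr1) were higher in EVP than in D (limma adjusted p between 1.01e-05 and 0.00164). The part of these transcripts in the differences of the members was not tested. In bulk samples, fewer cells of a type and less RNA per cell cannot be told apart.

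Between EVP and D, 8 of the 9 members passed the threshold of an adjusted p under 0.05 (limma), 6 of them higher in D (Fabp4, Fabp5, Cd36, Scarb1, Gpihbp1, Pparg) and 2 higher in EVP (Lpl, Apoe). Over all 25549 genes tested, 19.0% passed, 7.46% with higher values in D and 11.6% with higher values in EVP. For 7 members the ranges of EVP and D were separate, against 17.7% of all genes. The median log2 fold change of the members (EVP minus D) was -3.04, against 0.46 over all genes. All 9 members passed the filter on low values.

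**Figure D1:**
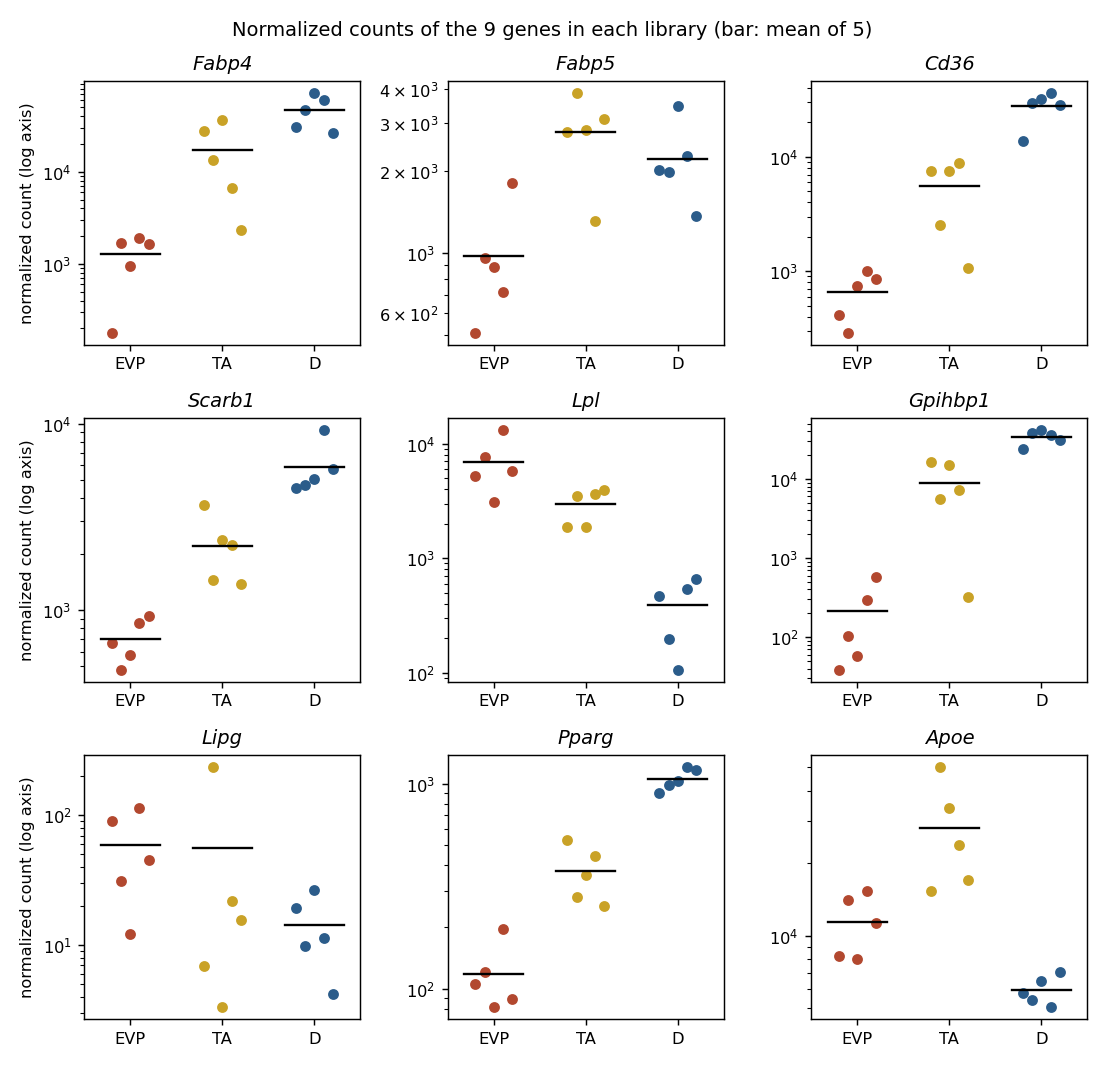
Normalized counts (log axis) of each gene in every library, grouped by population, with a bar at the mean of 5 libraries. Fabp4, Cd36, Scarb1, Gpihbp1 and Pparg climb from EVP to D, Lpl falls, Apoe peaks in TA with 15287 to 49979, and Lipg stays below 235 normalized counts.

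Between EVP and TA, 7 members passed (limma), all higher in TA (Fabp4, Fabp5, Cd36, Scarb1, Gpihbp1, Pparg, Apoe). Over all tested genes 3.50% passed, 1.94% higher in TA and 1.56% higher in EVP, and the libraries of 4 members did not overlap, against 4.29% of all genes. Without the 4 libraries with the most genes detected, limma called none of the members between EVP and TA, while 7 of the 9 had an unadjusted p under 0.05 in that fit, which had 4 EVP and 3 TA libraries and called 60 genes in all. With all libraries edgeR and DESeq2 called the same 7 members, and limma with array weights, which count scattered libraries less, called 5. Between TA and D, 5 members passed (limma), Cd36, Scarb1 and Pparg higher in D and Lpl and Apoe higher in TA. Over all tested genes 12.5% passed, 4.31% higher in D and 8.21% higher in TA. Here the libraries of 6 members did not overlap, against 9.25% of all genes. The 3 comparisons share libraries, so their results are not independent.

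**Figure D2:**
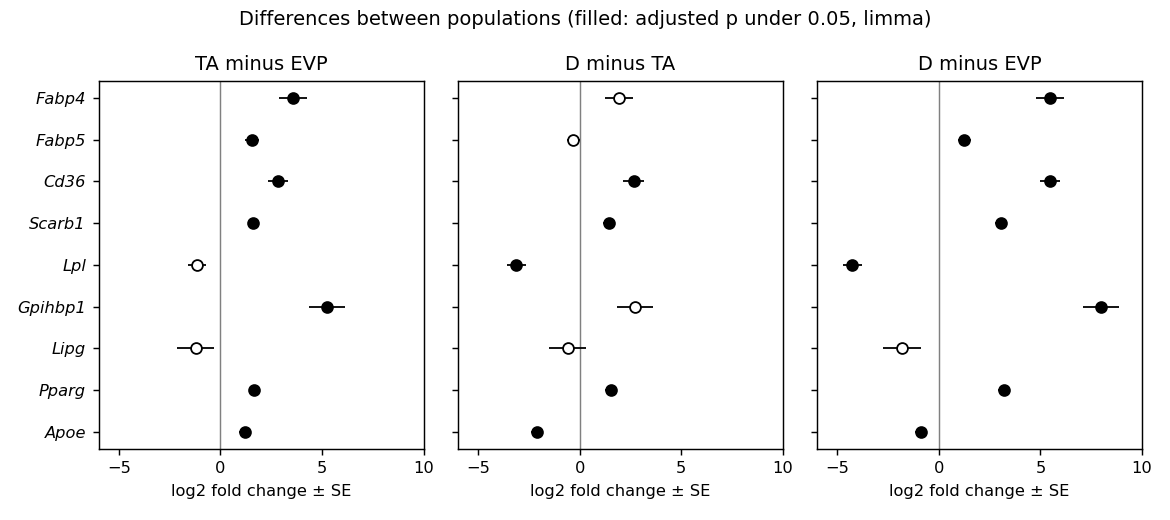
Log2 fold change with its standard error (horizontal axis) of each gene for TA minus EVP, D minus TA and D minus EVP, from the limma fit of all 15 libraries. Filled points passed an adjusted p of 0.05 and open points did not. Gpihbp1 differed most between D and EVP, by 7.98 on the log2 scale, and Lpl lay on the other side of 0.

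Of the intracellular carriers, Fabp4 (ENSMUSG00000062515, chr3:10204088-10208576) covered the wider range. EVP libraries held 179.1, 1688, 958.8, 1911 and 1641 normalized counts, TA libraries 27648, 13389, 36461, 6637 and 2326, and D libraries 30806, 47362, 71665, 60049 and 26629. All TA and all D libraries thus lay above all EVP libraries, while TA and D overlapped. The mean in D was 37.1-fold that in EVP, a log2 fold change of 5.49 (SE 0.69, limma adjusted p = 1.24e-05). From EVP to TA the mean was 13.6-fold higher (log2 fold change 3.56, SE 0.69, limma adjusted p = 0.00875), and TA and D differed by 1.93 on the log2 scale (SE 0.69, limma adjusted p = 0.0824). The last difference passed without EVP replicate 1, TA replicate 1 or TA replicate 3 (limma adjusted p = 0.0317 to 0.0473), and without TA replicate 5 it was 1.35 (limma adjusted p = 0.202). With all libraries, edgeR and DESeq2 did not call this difference either (adjusted p = 0.168 and 0.0812).

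Fabp5 (ENSMUSG00000027533, chr3:10012548-10016607) is the carrier made by many cell types beside endothelium. It had 509.1, 953.7, 884.3, 719.3 and 1796 normalized counts in EVP, 2775, 3853, 2826, 1308 and 3092 in TA and 2014, 1978, 3453, 2259 and 1361 in D. The lowest libraries of TA and D lay under the highest of EVP, so the populations overlapped throughout. Fabp5 was 2.28-fold higher in D than in EVP (log2 fold change 1.25, SE 0.33, limma adjusted p = 0.0113) and 2.85-fold higher in TA than in EVP (log2 fold change 1.56, SE 0.33, limma adjusted p = 0.0142). Both calls were lost without replicate number 1 of every population (limma adjusted p = 0.0531 and 0.0757) and without the 4 libraries with the most genes detected (0.058 and 0.152). The call of TA above EVP was also lost with array weights (limma adjusted p = 0.113). Between TA and D the log2 fold change was 0.31 (TA minus D, SE 0.33, limma adjusted p = 0.678).

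The balance of these carriers therefore differed between populations. There were 0.352 to 2.66 normalized counts of Fabp4 per count of Fabp5 in EVP, 0.752 to 12.9 in TA and 15.3 to 26.6 in D. These counts are not scaled by length, so the ratio compares populations and not the levels of both genes. In D the ratio was above every library of EVP and TA. The mean log2 ratio was 0.14 ± 1.1 in EVP, 2.15 ± 1.62 in TA and 4.38 ± 0.31 in D (SD, n = 5 each). D exceeded EVP by 4.24 and TA by 2.24 (exact permutation test, two-sided, adjusted p = 0.0119 for each over 6 tests, from p = 0.00794, the smallest that 5 against 5 can give). EVP and TA differed by 2.00 (exact permutation test, adjusted p = 0.0635), and without TA replicate 5 by 2.64 (exact permutation test, adjusted p = 0.0159).

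At the membrane, Cd36 (ENSMUSG00000002944, chr5:17781690-17888801), a receptor for long-chain fatty acids and oxidized lipoprotein, separated all 3 populations. It had 414.3, 290, 734.6, 1001 and 856 normalized counts in EVP, 7525, 2558, 7489, 8894 and 1062 in TA, and 13847, 29400, 31873, 36100 and 28219 in D. TA replicate 5, at 1062, came closest to the EVP libraries, and D replicate 1 was the lowest of D. D exceeded EVP by 42.3-fold (log2 fold change 5.47, SE 0.51, limma adjusted p = 4.19e-07), TA exceeded EVP by 8.35-fold (2.83, SE 0.51, limma adjusted p = 0.00552) and D exceeded TA by 5.07-fold (2.65, SE 0.51, limma adjusted p = 0.00186).

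Scarb1 (ENSMUSG00000037936, chr5:125277087-125341094) encodes the related receptor that takes up cholesterol from high density lipoprotein. EVP libraries had 663.6, 479.4, 575.9, 859.2 and 936.2 normalized counts, TA libraries 3671, 1450, 2381, 2234 and 1377, and D libraries 4504, 4704, 5064, 9246 and 5695. No library of 1 population reached into another. The steps were smaller than those of Cd36, with 3.16-fold from EVP to TA (log2 fold change 1.61, SE 0.27, limma adjusted p = 0.00453) and 2.63-fold from TA to D (1.44, SE 0.27, limma adjusted p = 0.00186). Over the whole range D was 8.31-fold above EVP (3.04, SE 0.27, limma adjusted p = 3.11e-07). The coding sequences of Cd36 and Scarb1 shared 57.8% of aligned bases, with no identical run above 8 bases.

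Lpl (ENSMUSG00000015568, chr8:68880491-68907448) ran the other way. Normalized counts were 5253, 7631, 3115, 13099 and 5718 in EVP, 1868, 3507, 1854, 3657 and 3923 in TA, and 468.2, 196.7, 106.3, 536.4 and 656.9 in D. Every D library was below every EVP and TA library, and EVP and TA overlapped. The mean was 17.7-fold higher in EVP than in D (log2 fold change 4.27, SE 0.46, limma adjusted p = 2.15e-06) and 7.54-fold higher in TA than in D (3.12, SE 0.46, limma adjusted p = 0.000181). EVP and TA differed by 1.15 (SE 0.46, limma adjusted p = 0.215).

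Gpihbp1 (ENSMUSG00000022579, chr15:75596628-75599481), the endothelial anchor of that enzyme, had the largest difference of the members. EVP libraries had 38.62, 101.9, 57.27, 296.5 and 577.4 normalized counts, TA libraries 16515, 5498, 15181, 7282 and 325.7, and D libraries 23857, 38386, 41353, 35471 and 31454. TA replicate 5 lay within the EVP range, the other 4 TA libraries lay between EVP and D, and all D libraries lay above all others. D was 159-fold above EVP (log2 fold change 7.98, SE 0.88, limma adjusted p = 2.78e-06) and TA 41.8-fold (5.25, SE 0.88, limma adjusted p = 0.00399). The step from TA to D was 3.81-fold, with no overlap of libraries and a log2 fold change of 2.73 (SE 0.88, limma adjusted p = 0.0507), and without TA replicate 5 it was 1.74 (limma adjusted p = 0.0811). It passed without EVP replicate 1 or 5 or TA replicate 1 or 3 (limma adjusted p = 0.0262 to 0.0423). With all libraries, edgeR and DESeq2 did not call this step either (adjusted p = 0.136 and 0.0787).

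Between EVP and D, Lpl and Gpihbp1 thus differed in opposite directions. Each count of Gpihbp1 was matched by 9.9 to 136 counts of Lpl in EVP, 0.113 to 12 in TA and 0.00257 to 0.0209 in D. Counts are not scaled by length here (10478 exonic bases in Lpl and 2554 in Gpihbp1). The ratio thus compares populations and not the levels of both genes. On the log2 scale the ratio was 5.55 ± 1.39 in EVP, -0.84 ± 2.73 in TA and -6.70 ± 1.34 in D (SD, n = 5 each). EVP exceeded D by 12.25 and TA exceeded D by 5.85 (exact permutation test, two-sided, adjusted p = 0.0119 for each). EVP exceeded TA by 6.40 (exact permutation test, adjusted p = 0.019). TA replicate 5, with a log2 ratio of 3.59, fell between EVP replicates 5 and 4, and without it EVP exceeded TA by 7.51. Without replicate number 1 of every population the difference was 5.45 and did not pass (exact permutation test, adjusted p = 0.0686).

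**Figure D3:**
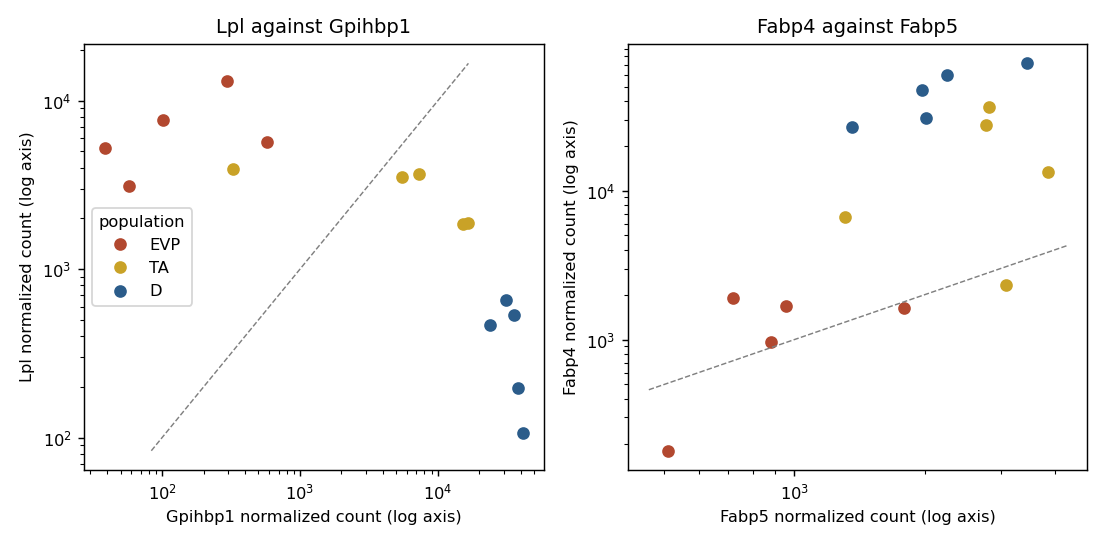
Normalized counts of Lpl against Gpihbp1 and of Fabp4 against Fabp5, 1 point per library on log axes, colored by population. The dashed line marks equal counts of both genes, which are not scaled by length. For Lpl and Gpihbp1 the D libraries lie at the lower right and the EVP libraries at the upper left, with the TA library of 325.7 Gpihbp1 counts beside EVP.

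Lipg (ENSMUSG00000053846, chr18:74939322-74961263), endothelial lipase, was close to the limit of counting, with 3 to 267 reads per library. It had 91.29, 31.35, 12.27, 113.5 and 45.64 normalized counts in EVP, 6.894, 234.7, 3.348, 21.94 and 15.57 in TA, and 19.22, 9.796, 26.58, 11.27 and 4.23 in D. A single TA library, replicate 2, held more than the other 4 together, and all populations overlapped. No comparison passed the threshold. The log2 fold change was 1.82 for EVP minus D (SE 0.92, limma adjusted p = 0.22), 1.22 for EVP minus TA (SE 0.92, limma adjusted p = 0.634) and 0.60 for TA minus D (SE 0.92, limma adjusted p = 0.789), and the last became -0.29 without TA replicate 2. With array weights, which count scattered libraries less, EVP exceeded D by 2.20 (limma adjusted p = 0.0169).

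Pparg (ENSMUSG00000000440, chr6:115360951-115490399), the receptor that regulates many fatty acid genes, separated the populations as well. EVP held 105.3, 121.5, 81.81, 195 and 89.2 normalized counts, TA held 529.1, 280.4, 360.5, 446.6 and 254.1, and D held 899.2, 982.1, 1028, 1201 and 1160. The 3 ranges did not touch, and in D the SD was 11.9% of the mean. D was 8.89-fold above EVP (log2 fold change 3.20, SE 0.27, limma adjusted p = 1.17e-07). TA was 3.16-fold above EVP (1.67, SE 0.27, limma adjusted p = 0.00327) and D was 2.82-fold above TA (1.54, SE 0.27, limma adjusted p = 0.000773).

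Apoe (ENSMUSG00000002985, chr7:19696109-19699188), an apolipoprotein that binds lipoprotein receptors and is made in large amounts by macrophages, had its highest values in TA. Normalized counts were 8279, 14123, 7978, 15393 and 11323 in EVP, 15287, 49979, 33946, 23833 and 16972 in TA, and 5772, 5393, 6494, 5069 and 7107 in D. All D libraries were below all others, and the lowest TA library was just below the highest EVP library. TA exceeded D by 4.69-fold (log2 fold change 2.10, SE 0.28, limma adjusted p = 5.8e-05) and EVP by 2.45-fold (1.20, SE 0.28, limma adjusted p = 0.0213). EVP exceeded D by 1.91-fold (0.90, SE 0.28, limma adjusted p = 0.0288), a call that edgeR did not make (adjusted p = 0.0692). The last was lost without D replicate 2 or 4 or EVP replicate 2, 4 or 5 (limma adjusted p = 0.054 to 0.0827), and that of TA above EVP without EVP replicate 1 or 3 or TA replicate 3 (0.0505 to 0.0666). The call of TA above EVP was also lost with array weights (limma adjusted p = 0.0548) and in a fit of only these 2 populations (0.0636). The Lin- gate of the sort serves to remove blood cells. Of 10 macrophage markers, 7 were higher in TA than in EVP in limma, 1 in edgeR and 8 in DESeq2, and their summed normalized counts lay between 2033 and 12097 in EVP, 8297 and 40918 in TA, and 4091 and 13256 in D. Between EVP and D they did not follow Apoe, since 1 passed (Csf1r, higher in EVP) and the median log2 fold change (EVP minus D) was -0.90. The melanoma markers had the same order of populations as Apoe, with 3 of 6 higher in TA than in EVP and 6 of 6 higher in TA than in D (limma). Of 7 pan-leukocyte and 6 platelet markers tested, 3 and 2 were higher in TA than in EVP (limma). No keratinocyte marker passed there in limma or edgeR, 1 passed in DESeq2 and 0 had an unadjusted p under 0.05 in limma, while TA replicate 2, the library with the most Apoe, had the most Krt5 (12745 normalized counts). Of 10 mural markers, 2 were higher in TA than in EVP and 6 higher in TA than in D (limma). Their summed normalized counts lay between 7449 and 34637 in EVP, 6231 and 157242 in TA, and 5227 and 10913 in D. Against D, 2 of 10 macrophage, 4 of 7 pan-leukocyte, 1 of 6 platelet and 7 of 7 keratinocyte markers were higher in TA (limma). Over all tested genes 8.21% were. The part of these cell types in the Apoe result was not tested.

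On the log2 scale, TA lay at 0.65 of the way from EVP to D for Fabp4, 0.52 for Cd36, 0.53 for Scarb1, 0.66 for Gpihbp1 and 0.52 for Pparg. Lpl had covered 0.27 of its way at TA. Fabp5 was past D at 1.24, and Apoe moved away from D, at -1.34. On means of normalized counts the same genes lay lower, for example Cd36 at 0.18 and Gpihbp1 at 0.26, while Lpl was at 0.61. These positions are a description with no test.

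Levels of different genes can be compared only per length, as reads per kilobase of exon scaled to the same sum in each library (TPM). By all exonic bases, Apoe ranked highest of the 9 in EVP (903 ± 357, SD, n = 5) and in TA (2336 ± 1226), followed in EVP by Lpl (111 ± 69.2) and in TA by Fabp4 (626 ± 525). In D, Gpihbp1 (2461 ± 798), Fabp4 (1942 ± 938) and Cd36 (1454 ± 571) stood above Apoe (504 ± 131), and the libraries of the first 3 overlapped. The order in D depended on the length used. Retained introns make the exonic bases of Fabp4 4489 long against 896 in its longest coding transcript, and by the latter Fabp4 came first in D (6927 ± 3218) and made up 58.0% of the summed level of the members, against 29.1% by all exonic bases. Lipg was lowest in every population by each length.

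Since 9 of the 10 endothelial markers were higher in D as well, each member was also set against the summed counts of the 10 endothelial markers in the same library, a comparison added after seeing the data. The log2 ratio of Fabp4 and of Cd36 to the markers differed by 0.10 and 0.09 between D and EVP, less than the SD within either population (exact permutation test, adjusted p = 0.905 and 0.791 over 27 tests). For Gpihbp1 the ratio was still higher in D than in EVP, by 2.59, and higher in TA than in EVP, by 2.23 (exact permutation test, adjusted p = 0.0195 and 0.0459). Scarb1, Pparg and Fabp5 had the opposite direction: relative to the markers they were higher in EVP than in D, by 2.35, 2.18 and 4.14 (exact permutation test, adjusted p = 0.0195 each). Lpl and Apoe were higher in EVP by 9.66 and 6.28, and Lipg, not called on its own, by 7.21 (exact permutation test, adjusted p = 0.0195 each). A ratio of this kind shows unequal change of numerator and markers and does not show which of them changed. Tek, the endothelial marker that did not pass between EVP and D, had a mean of 1578 normalized counts in EVP and 2379 in D. The sums were 1914 to 3963 in EVP and 95280 to 148576 in D, so Tek made up a large part of the sum in EVP alone. The sizes of these differences depend on it, and so does the near equality of the ratios of Fabp4 and Cd36 between D and EVP. Ratios without Tek were not computed.

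**Figure D4:**
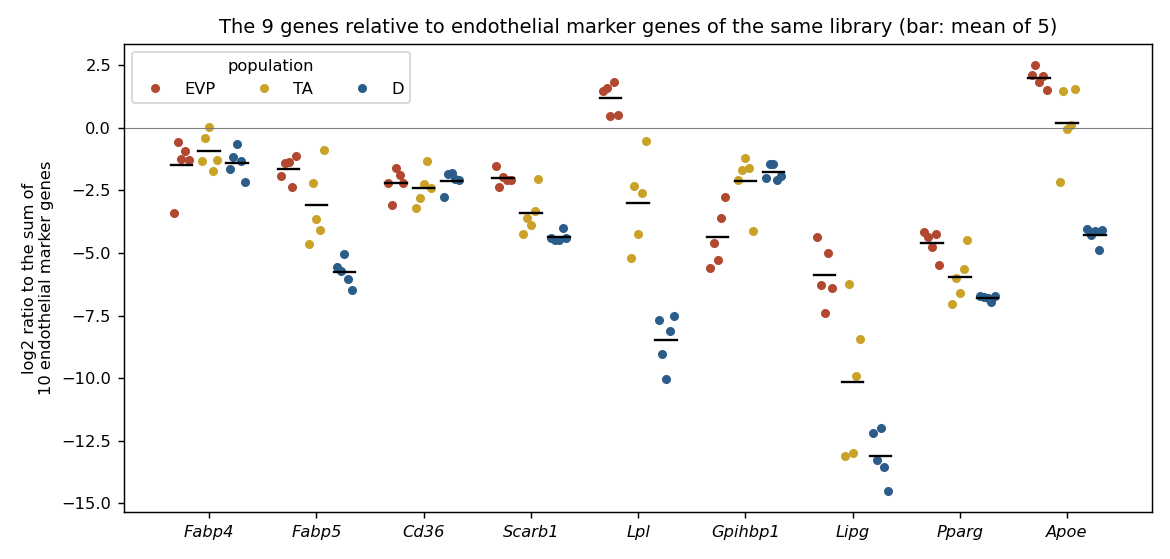
Log2 ratio of each gene to the summed normalized counts of 10 endothelial marker genes of the same library (vertical axis), by gene and population, with a bar at the mean of 5 libraries. Fabp4 and Cd36 lie at similar heights in the 3 populations, Gpihbp1 is lowest in EVP, and the other genes are lowest in D. The heights in EVP depend on Tek, which made up a large part of the sum in that population alone.

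Lpl was also set beside the fibroblast markers, which were higher in EVP and TA than in D (10 of 10 passed in each, limma). Lpl amounted to 0.294 to 1.06% of the summed fibroblast markers in EVP, 0.627 to 1.44% in TA and 10.3 to 29.0% in D, so the fall of the markers to D was larger than that of Lpl. Apoe amounted to 93.6 to 404% of the summed macrophage markers in EVP, 58.2 to 370% in TA and 53.6 to 159% in D, ranges that overlapped. Of the summed mural markers it amounted to 32.7 to 190% in EVP, 10.8 to 245% in TA and 46.5 to 110% in D. Adipocytes are known for Fabp4, Cd36, Pparg and Lpl. The summed normalized counts of 10 adipocyte markers were 6.545 to 790 in EVP, 18.68 to 359.6 in TA and 26.59 to 226.9 in D. Adipoq had at most 10.53 in any library. Of the 10 markers 5 passed the filter on low values. Between EVP and D 1 was called (limma), Aqp7, higher in D. It had 2.389 ± 2.711 in EVP and 97.67 ± 78.04 in D (SD, n = 5, limma adjusted p = 0.00138). Aqp7 was also higher in D than in TA (limma adjusted p = 0.0194), and no other adipocyte marker passed. The part of adipocytes in the differences of the members was not tested.

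The genes whose values over the 15 libraries followed each member most closely were named by the highest Pearson r of log2 values, as a description; the libraries share their populations and depth. For Gpihbp1 they were Kcne3 (r = 0.996), Pdgfb (0.991) and Gm14207 (0.990). Cd36 went with Adora2a (r = 0.989), Cd300lg (0.985) and Zfp69 (0.984), Scarb1 with Eng (0.992), Rell1 (0.986) and Snn (0.981), and Fabp4 with Tmem252 (0.981), Jag2 (0.976) and Cracr2b (0.973). Pparg was closest to Epha2 (r = 0.979), Nid2 (0.977) and 4931406P16Rik (0.975). Lpl ran with Cd248 (r = 0.982), a marker of fibroblasts and pericytes, Ggt5 (0.979) and Lpar1 (0.977). Fabp5 was closest to its copy Gm6166 (r = 0.957), Arl2 (0.910) and Ppia (0.879), Apoe to Hpgds (0.925), Pkp3 (0.923) and Cib2 (0.920), and Lipg to Gm29100 (0.865), Chd2 (0.844) and 4930597O21Rik (0.842).

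Beyond the 9 members, 124 genes in 10 lists cover the same pathways, and 116 of them were tested. Between EVP and D 57 passed (limma), 39 higher in EVP and 18 higher in D. TA and D differed in 40, and EVP and TA in 7. Under quantile normalization 41 passed between EVP and D, 24 higher in EVP and 17 higher in D, and 26 between TA and D. Between EVP and TA, 3 were higher in EVP and 4 in TA, against 1 and 4 with libraries scaled to the same total and 5 and 4 under quantile normalization. Their median log2 fold change (EVP minus D) was 0.50, close to the 0.46 of all genes, while that of the members was -3.04. Over all tested genes 19.0% passed between EVP and D, 11.6% higher in EVP and 7.46% higher in D. The share was 12.5% between TA and D and 3.50% between EVP and TA. Counts in the single lists below are to be read beside these shares.

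**Figure D5:**
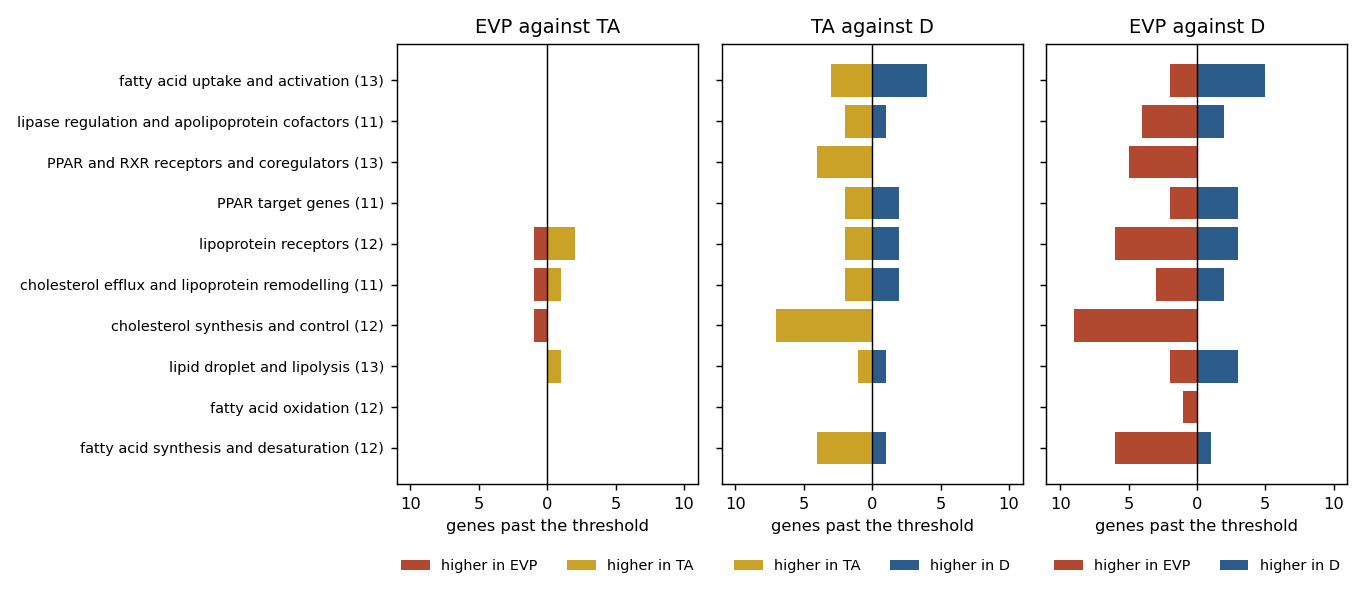
Number of genes past an adjusted p of 0.05 (limma, horizontal axis) in each pathway list, to the left where higher in the population named before the word against and to the right where higher in the other, with the number tested in parentheses. Between EVP and D, fatty acid uptake and activation has 5 of 13 genes higher in D, and cholesterol synthesis and control has 9 of 12 higher in EVP. Over all tested genes 7.46% were higher in D and 11.6% higher in EVP.

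Fatty acid uptake and activation had 5 of 13 tested genes with higher values in D and 2 with higher values in EVP. Cav1, a coat protein of membrane pits through which Cd36 acts, had 6121 ± 794 normalized counts in EVP, 9823 ± 8300 in TA and 23938 ± 5319 in D (SD, n = 5), and was higher in D than in EVP by 1.95 on the log2 scale (limma adjusted p = 0.000162). Meox2 and Tcf15 make a pair of transcription factors known to drive Cd36 and Lpl in heart endothelium. Meox2 was 4.83-fold higher in D than in EVP (limma adjusted p = 0.00026). Tcf15 had at most 1.306 normalized counts in any EVP library, under the limit of 3 reads, 0 to 22.72 in TA and 22.97 to 78.95 in D (limma adjusted p = 0.000299 for EVP against D). Slc27a3, a fatty acid transport protein, was 6.93-fold higher in EVP than in D (limma adjusted p = 9.31e-05). From TA to D, 7 of 13 passed, among them Fabp7, a brain-type carrier at 64.95 ± 21.28 in TA and 20.22 ± 10.51 in D (SD, n = 5, limma adjusted p = 0.0415), and Slc27a1, 2.74-fold higher in TA (limma adjusted p = 0.0355). Between TA and D limma called 3 of the list higher in TA and 4 higher in D, against 0 and 3 under quantile normalization, and edgeR called 5 in all.

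Of the 11 tested regulators and cofactors of lipases, 4 were higher in EVP than in D and 2 higher in D, against 2 and 2 under quantile normalization. Sdc1, a heparan sulfate proteoglycan on which lipases dock, was 12.2-fold higher in EVP than in D (limma adjusted p = 1.14e-06), and Gpc1, another, 7.56-fold (limma adjusted p = 0.00029). Hspg2, the proteoglycan perlecan of the basement membrane, was 2.52-fold higher in D (limma adjusted p = 0.0037). Angptl8, an inhibitor of Lpl, stood at 47.29 ± 21.26 normalized counts in EVP against 5.428 ± 1.381 in D (SD, n = 5, limma adjusted p = 0.00675). Between TA and D 3 passed, with Sdc1 11.6-fold and Gpc1 5.55-fold higher in TA and Hspg2 2.39-fold higher in D (limma adjusted p = 6.18e-06, 0.00461 and 0.00443).

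Among the other receptors and coregulators of the PPAR and RXR family, 5 of 13 passed between EVP and D and 4 of 13 between TA and D (limma), each of them with lower values in D, unlike Pparg. Under quantile normalization 1 passed in each. Cebpb and Cebpa, partners of Pparg in fat cells, were 6.80-fold and 5.27-fold higher in EVP than in D (limma adjusted p = 0.00151 and 0.0281). Ppargc1b, a coactivator, was 5.78-fold higher in EVP than in D (limma adjusted p = 0.00902) and 8.85-fold higher in TA (0.00497), and Ppargc1a was 3.93-fold higher in TA than in D (0.0301). Ppara, the PPAR of liver, had 44.20 ± 39.40 normalized counts in TA and 3.02 ± 6.754 in D (SD, n = 5, limma adjusted p = 0.00489).

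PPAR target genes other than the members were split, with 3 of 11 higher in D and 2 higher in EVP. Aqp7, a glycerol channel, stood at 2.389 ± 2.711 normalized counts in EVP against 97.67 ± 78.04 in D (SD, n = 5, limma adjusted p = 0.00138). Klf15, a transcription factor, had 153.9 ± 73.91 in EVP, 173.7 ± 98.21 in TA and 38.04 ± 59.77 in D (SD, n = 5), and was higher in EVP than in D (limma adjusted p = 0.0136). Pdk4 was 3.54-fold higher in D than in TA (limma adjusted p = 0.0167).

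Lipoprotein receptors also differed in both directions, with 6 of 12 higher in EVP and 3 of 12 higher in D. Lrp1, a receptor for Apoe, had 8347 ± 2386 normalized counts in EVP, 2578 ± 606.3 in TA and 192.3 ± 42.67 in D (SD, n = 5) and passed in all 3 comparisons (limma adjusted p = 9.09e-11 for EVP against D, 0.00148 for EVP against TA and 1.43e-08 for TA against D). Stab1, a scavenger receptor of sinusoidal endothelium and macrophages, went from 266.1 ± 171.2 in EVP through 1212 ± 747.1 in TA to 4087 ± 1120 in D (limma adjusted p = 4.55e-06 for EVP against D). Vldlr was 6.25-fold and Sorl1 5.89-fold higher in EVP than in D (limma adjusted p = 0.000273 and 0.018).

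Among genes of cholesterol efflux and lipoprotein remodelling, 3 of 11 were higher in EVP than in D and 2 higher in D, against 1 and 2 under quantile normalization. Abcg1, which exports cholesterol to high density lipoprotein, had 504 ± 88.8 normalized counts in EVP, 3175 ± 2328 in TA and 11066 ± 1726 in D (SD, n = 5), 22.0-fold higher in D than in EVP (limma adjusted p = 4.03e-06). Apod, an apolipoprotein made by fibroblasts, had 8503 ± 4523, 2691 ± 1866 and 36.83 ± 12.91 (SD, n = 5, limma adjusted p = 1.54e-09 for EVP against D). Apoc1, a neighbor of Apoe in the genome, had its highest mean in TA like Apoe, with 239.6 ± 283.5 normalized counts against 47.23 ± 27.04 in EVP and 9.103 ± 12.78 in D (SD, n = 5, limma adjusted p = 0.446 for EVP against TA and 0.00247 for TA against D). Pltp was 4.03-fold higher in EVP than in D (limma adjusted p = 0.00654), and Clu was 2.54-fold higher in D than in TA (0.038).

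Cholesterol synthesis and control went 1 way, with 9 of 12 genes higher in EVP than in D and 7 of 12 higher in TA than in D (limma), all genes that passed in these comparisons. For EVP against D the count was 6 with libraries scaled to the same total, and 7 with TMM and with quantile normalization. The list had a median log2 fold change of 0.92 (EVP minus D), against 0.46 over all genes. Npc2 and Soat1, of cholesterol storage and transport, were 4.26-fold and 3.79-fold higher in EVP than in D (limma adjusted p = 1.21e-07 and 0.000344). Sqle, an enzyme of synthesis, was 2.24-fold higher in TA than in D (limma adjusted p = 0.00331).

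Fatty acid synthesis and desaturation had 6 of 12 genes higher in EVP than in D and 1 higher in D. Scd1 had 1008 ± 119.3 normalized counts in EVP, 2120 ± 1970 in TA and 122.5 ± 93.51 in D (SD, n = 5, limma adjusted p = 0.00041 for EVP against D). Fads2, Scd2 and Acaca were 2.94-fold, 2.18-fold and 2.83-fold higher in EVP than in D (limma adjusted p = 0.000467, 2.1e-05 and 0.0272), and Fasn was 1.85-fold higher in TA than in D (0.0245). Of 13 tested genes of lipid droplets and lipolysis, 3 were higher in D than in EVP and 2 higher in EVP. Mgll, which splits monoglycerides, had 2043 ± 419.2 in EVP, 4164 ± 1872 in TA and 9373 ± 2300 in D (SD, n = 5, limma adjusted p = 3.49e-06 for EVP against D). Pnpla2, the triglyceride lipase, was 3.56-fold higher in D than in EVP (limma adjusted p = 0.00336), and its inhibitor G0s2 was 5.45-fold higher in EVP (0.0159), as was the droplet protein Plin3, by 1.83-fold (0.00569). In fatty acid oxidation Acaa2 alone of 12 tested genes passed between EVP and D, against 19.0% of all tested genes. It was 2.15-fold higher in EVP (limma adjusted p = 0.00675). Between TA and D no gene of this list passed in limma or edgeR, 2 passed in DESeq2, and 2 had an unadjusted p under 0.05 in limma.

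Between EVP and TA, 7 of the 116 tested pathway genes passed in limma, 5 in edgeR and 13 in DESeq2, and 26 had an unadjusted p under 0.05 in limma. Among them Stab1 (4.55-fold), Abcg1 (6.30-fold) and Mgll (2.04-fold) were higher in TA, with limma adjusted p = 0.0169, 0.0253 and 0.0404. Lrp1 (3.24-fold), Apod (3.16-fold) and Npc2 (1.72-fold) were higher in EVP, with limma adjusted p = 0.00148, 0.0389 and 0.0169.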

How the data were processed

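RNA of 15 sorted samples, 5 each of EVP, TA and D, had been amplified with a modified Smart-Seq2 protocol. Per the submitters' processing notes and the study's methods, reads were aligned with STAR 2.5.3a to GRCm38, counted per gene of Ensembl 91 with HTSeq-count 0.6.1 and normalized with DESeq2 1.10.1. The counting strand is not given in the sources used here. The deposited table is a signal: each gene's count over a size factor that the authors estimated for the library. Division by the smallest value above 0 gave whole reads for 100% of values (tolerance 0.01). The authors' own comparison tables (mean, fold change, standard error, statistic and p-values) were not used.

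Log2(normalized count + 1) of 25549 genes with a mean of at least 5 was fitted in limma 3.58.1 (R 4.3.3) with 1 coefficient per population over all 15 libraries, two-sided, with Benjamini-Hochberg adjustment over all genes tested and a threshold of 0.05. A fold is the mean of 1 population over that of another, and log2 fold changes are on the log2(value + 1) scale, which understates low genes. Ratios were compared with exact permutation tests. As alternatives, edgeR 4.0.16 and DESeq2 1.42.0 were run on the whole reads, and pseudocount, filter, scaling, array weights, replicate block and left-out libraries were varied. On simulated data for EVP against D (25464 genes tested), limma called 126 of 183 changed genes and 7 others. Lengths came from GENCODE release M21, in which 99.8% of genes matched, and symbols shared by several genes (220 genes) were left out of lists. Promoters came from RefSeq. The limit of detection was 3 reads, which covers counting error only.

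The genes, lists and tests were chosen with earlier results of these data known. Named are all 9 members, up to 4 genes past the threshold with the largest log2 fold change per pathway list and comparison, the 3 genes with the highest correlation with each member, and defining markers; some genes that this rule names are not reported here. Comparisons with summed markers, lengths of coding transcripts and the fit without 4 libraries were added after the data were seen.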

Additional observations from a re-analysis of the deposited data

Results flagged for a closer look

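Of 33 groups of 5 libraries examined on the log2 scale, 2 held a library far from the other 4 (gap to the nearest library over the whole range above 0.71), and chance alone gives about 5% of groups. Cd36 in D replicate 1 was 13847 normalized counts, against 28219 to 36100 in the other D libraries, a gap of 0.743 of the range. Gpihbp1 in TA replicate 5 was 325.7 normalized counts, against 5498 to 16515 in the other TA libraries, a gap of 0.72 of the range. That library also had the highest Rgs5 (85852) and the lowest Pecam1 (372.4) of TA.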

How the results depend on the processing

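Under the alternatives run, the members called ranged from 7 to 9 for EVP against D and from 5 to 7 for TA against D. For EVP against TA the count was 6 or 7 without any single library and 5 with array weights. It was 0 in limma without the 4 libraries with the most genes detected (7 of 9 with an unadjusted p under 0.05), a fit with fewer libraries. Of the pathway genes, 7 were called between EVP and TA, and the count was 1 without those 4 libraries, 13 with DESeq2, 2 in a fit of only the 2 populations, 4 without replicate number 1 and 2 to 11 without single libraries (lowest without EVP replicate 2, highest without TA replicate 2); the cause was not tested. Between TA and D it was 26 with quantile normalization, against 40. The log2 fold change of Lipg reversed to -0.20 between EVP and TA without the 4 libraries, and between TA and D to -0.54 with quantile normalization and -0.29 without TA replicate 2 (up to 1.15 without TA replicate 3). Fabp4 and Gpihbp1, not called between TA and D, were called there in 6 and 10 of 29 alternatives, among them those without TA replicate 1 or TA replicate 3. Apoe lost its call between EVP and D in 7 of 29 and between EVP and TA in 6 of 29. The median log2 fold change over all genes (EVP minus D) was 0.46, and -0.05 with quantile normalization, where 49.2% of the calls were higher in EVP against 60.8%. Between EVP and TA 44.6% of the calls were higher in EVP, and 25.1% with libraries scaled to the same total.

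Of 15 same-numbered pairs of libraries, 12 were the best match of their number, while the correlation of their deviations ranged from -0.136 to 0.689 and 4 of 15 were at or under 0.1. The replicate 1 libraries held 10.6% (EVP), 8.691% (TA) and 8.495% (D) of their reads on the gene Gm10800, against at most 0.7013% in any other library. What same-numbered libraries share was not tested, and the main fit has no block. With the replicate number as a block, 5710, 1262 and 4047 genes were called for EVP against D, EVP against TA and TA against D, against 4859, 893 and 3199, and 12 pathway genes between EVP and TA. Sign flips of 5 same-number differences cannot give a p under 0.0625, so under the block the ratio of Fabp4 to Fabp5 (-4.24 for EVP minus D, -2.24 for TA minus D) and that of Lpl to Gpihbp1 (12.25, 6.40 and 5.85) did not pass. The difference of Lpl to Gpihbp1 between EVP and TA was 5.45 without replicate number 1 (exact permutation test, adjusted p = 0.0686) and 5.83 to 7.51 without single libraries, and that of Fabp4 to Fabp5 was -2.64 to -1.59. Fabp4 made up 29.1% of the summed level per length in D, and 58% by coding transcripts. The median position of TA was 0.53, and 0.27 on means of normalized counts.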

Other observations

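Over the 15 libraries, which share populations and depth, the log2 values of Gpihbp1, Scarb1, Cd36, Pparg and Fabp4 had Pearson correlations of 0.981, 0.967, 0.964, 0.935 and 0.927 with Pecam1. Fabp5 was at 0.613, Apoe at -0.245, Lipg at -0.487 and Lpl at -0.817. These are given as a description with no test.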
